A study of Mus musculus with 2 samples.

Results

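Yap1 and its paralog Wwtr1, which encodes TAZ, were followed together with the genes whose products act on them: the DNA-binding partners Tead1, Tead2 and Tead3, the TEAD co-repressor Vgll4, the kinases Lats1, Lats2 and Stk3, and the scaffold Wwc1. The genes were taken by name from the deposited count table, and all 10 were found among its 15643 listed genes. RNA came from GFP-positive cells of CD-1 mouse embryonic brain, labelled neural stem cells, in which a plasmid had been introduced by in utero electroporation at embryonic day 13. The plasmid was either a control plasmid or one for knockdown of Rbm3, a cold-inducible RNA-binding protein. Maternal hypothermia was induced at embryonic day 14 in both groups and cells were collected by flow sorting at embryonic day 15, so cooling is shared by both groups and is not compared. Sorting for GFP was meant to keep cells that took up plasmid at electroporation, but markers of other cell types were also read, as given below. The labels give neither the number of embryos pooled nor the plasmid sequences. Each group had 1 library, and every difference below is a difference between 2 libraries with no replicate check.

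YAP and TAZ are transcriptional coactivators that bind no DNA themselves and reach their target genes through TEAD factors. In the Hippo pathway, Stk3 and Stk4 activate Lats1 and Lats2, which phosphorylate YAP and TAZ and so keep them out of the nucleus. Wwc1, also called KIBRA, promotes this kinase cascade, and Vgll4 competes with YAP and TAZ for TEAD factors. In the developing cortex YAP and TAZ are found in radial glia, the progenitors that line the ventricle, where YAP is known to favour proliferation. They are also made in vessels, meninges and choroid plexus.

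The promoters of 4 of these genes are shown because they include both coactivators and the pair of genes with the highest ratios. Sequences are from RefSeq on build GRCm38.p6, 5′ to 3′ on the strand of the gene, from 250 bases before to 50 bases after an annotated start. Wwtr1 has a pair of overlapping entries, of which the one with the more upstream start is shown. Capitals mark GGAATG, the core sequence that TEAD factors recognise.
Yap1, chr9:8004547-8004846, minus strand: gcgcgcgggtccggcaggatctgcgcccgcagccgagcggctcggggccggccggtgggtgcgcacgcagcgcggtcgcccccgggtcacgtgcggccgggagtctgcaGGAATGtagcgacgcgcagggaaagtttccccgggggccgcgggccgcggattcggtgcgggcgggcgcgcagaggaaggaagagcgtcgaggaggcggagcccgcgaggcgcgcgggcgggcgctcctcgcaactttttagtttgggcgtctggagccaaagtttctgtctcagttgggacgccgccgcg
Wwtr1, chr3:57575861-57576160, minus strand: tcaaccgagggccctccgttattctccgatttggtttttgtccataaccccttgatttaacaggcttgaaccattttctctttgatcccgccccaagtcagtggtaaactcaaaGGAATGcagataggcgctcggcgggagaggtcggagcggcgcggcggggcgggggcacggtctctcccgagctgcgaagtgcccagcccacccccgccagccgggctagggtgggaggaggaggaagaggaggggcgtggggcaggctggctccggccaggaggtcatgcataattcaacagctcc
Vgll4, chr6:114969154-114969453, minus strand: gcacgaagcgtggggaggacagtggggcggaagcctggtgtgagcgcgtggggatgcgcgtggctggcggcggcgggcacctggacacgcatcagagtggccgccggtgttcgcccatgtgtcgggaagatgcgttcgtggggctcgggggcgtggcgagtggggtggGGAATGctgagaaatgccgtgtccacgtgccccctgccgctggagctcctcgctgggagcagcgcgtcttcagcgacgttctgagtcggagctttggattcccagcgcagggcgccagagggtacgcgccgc
Wwc1, chr11:35980478-35980777, minus strand: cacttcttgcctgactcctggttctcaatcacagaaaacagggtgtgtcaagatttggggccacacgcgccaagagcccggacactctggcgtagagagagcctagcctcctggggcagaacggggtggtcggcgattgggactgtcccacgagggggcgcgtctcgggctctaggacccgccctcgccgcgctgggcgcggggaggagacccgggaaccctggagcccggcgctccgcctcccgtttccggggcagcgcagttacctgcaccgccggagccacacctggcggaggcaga
The TEAD core was searched on both strands (GGAATG or CATTCC). It starts 141 bases upstream of the start in Yap1, 136 bases upstream in Wwtr1 and 82 bases upstream in Vgll4, each time on the strand of the gene. The Wwc1 window holds no such letters. Promoters were found for 8 of the 10 genes, in 12 entries, and Stk3 and Tead1 had none. The core was in 7 of the 12 entries, belonging to Yap1, Wwtr1, Vgll4, Tead3 and Lats2, and in 14.7% of all 32851 promoters of the same length. Some of these entries overlap and hold the same copy. The genes holding it included the lowest ratio of the 10, that of Yap1, and also Vgll4, the second highest, so its presence did not sort the genes by direction. The AP-1 core TGANTCA was in 0 of the 12 entries and in 7.81% of all promoters. The GC box GGGCGG, searched on both strands, was in 11 of 12 entries against 35.7% of all promoters. Most of these windows were GC-rich, at 74% for Yap1 and 61.7% for the Wwtr1 window shown, beside a median of 52.7% over all promoters. The 12 entries ranged from 42.7% to 75.3%, and the lowest, a Lats2 entry, held no GC box. The CCAAT box was in the Wwc1 entry alone, against 37.4% of all promoters. A match is a run of letters and was not tied to binding in these cells.

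The libraries held 17757555 (control) and 16823612 (knockdown-labelled) reads over listed genes. Rbm3, the targeted gene, stood at 38.8 RPKM in the control and 30.3 RPKM in the knockdown-labelled library, which is 84.1% of the control level after scaling (95% counting interval 79.8% to 88.7%). Its log2 ratio of -0.25 lay inside the interquartile range of all measured genes, -0.30 to 0.32, as defined below. Of those genes 27.9% had a lower ratio. The label is used below as given. The labelled cell type was checked against markers: the stem cell factor Sox2 stood at 57.9 and 58.8 RPKM and Pax6 at 9.14 and 6.54 RPKM, while the neuronal tubulin Tubb3 stood at 1150 and 1070 RPKM. Transcripts of progenitors and of neurons were thus both present in each library. Levels are given as RPKM, the authors' read density per kilobase relative to library size. Differences are ratios of knockdown over control of CPM, reads relative to the library total, after TMM scaling, which treats most genes as equal. Each interval covers counting error only and treats reads as independent. Amplified reads are not independent molecules, so the intervals may be too narrow even for that error. No replicate measures the spread between samples.

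Both coactivators were lower in the knockdown-labelled library. Yap1 (ENSMUSG00000053110.7, GRCm38 chromosome 9, 7931999 to 8004596, minus strand) had 1086 control reads and 473 knockdown reads, at levels of 6.60 and 3.03 RPKM. Its scaled level was 2.02-fold lower (1.81 to 2.25). Wwtr1 (ENSMUSG00000027803.8, chromosome 3, 57455649 to 57575910, minus strand) had 868 and 450 reads, at 10.2 and 5.59 RPKM, and was 1.70-fold lower (1.51 to 1.90). The counting intervals of the levels of each gene did not overlap between the libraries. Summed over both genes, the coactivator level went from 16.8 to 8.62 RPKM. TAZ transcripts outnumbered YAP transcripts per length in both libraries: Wwtr1 made up 60.8% of the summed level in the control and 64.8% in the knockdown-labelled library. The ratio of Wwtr1 to Yap1 reads was 1.19-fold higher in the latter, with a counting interval of 1.01 to 1.40 that reached almost to 1. Of all 12140 measured genes, those with a mean of at least 5 CPM, 4.50% had a lower log2 ratio than Yap1 and 8.20% a lower one than Wwtr1.

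The TEAD genes, whose products carry YAP and TAZ to DNA, differed far less. Tead2 (chromosome 7, 45215753 to 45233644) was the most abundant of the 3 and made up 70.8% and 67.7% of their summed RPKM. It had 2080 and 1841 reads, at 25.1 and 23.4 RPKM, a ratio of 1.01 (0.945 to 1.07). Tead3 (chromosome 17, 28331671 to 28350817, minus strand) had 315 and 266 reads, at 4.03 and 3.59 RPKM, with a ratio of 0.961 (0.813 to 1.13). For both genes the interval of the ratio held 1. Tead1 (chromosome 7, 112679318 to 112906807) had 1263 and 1435 reads, at 6.32 and 7.58 RPKM, and was 1.29-fold higher (1.20 to 1.40). With a correction for transcript length its log2 ratio of 0.37 became 0.17. The 3 genes together stood at 35.4 RPKM in the control and 34.6 RPKM in the knockdown-labelled library. Tead4, the fourth TEAD gene, was not analysed here.

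Vgll4 (chromosome 6, 114860628 to 114969994, minus strand), whose product displaces YAP and TAZ from TEAD factors, was higher in the knockdown-labelled library. It had 1107 and 1599 reads, at 15.1 and 23.0 RPKM, a 1.64-fold higher scaled level (1.52 to 1.78). Its paralog Vgll2 had 9 and 17 reads, too few to be counted as measured, with a ratio of 2.15 and an interval of 0.906 to 5.47. Vgll3 was not analysed here. In the knockdown-labelled library Vgll4 stood level with Tead2 within counting error: 23.0 (21.9 to 24.1) beside 23.4 (22.4 to 24.5) RPKM.

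The LATS kinases, which phosphorylate YAP and TAZ, were on the higher side. Lats1 (chromosome 10, 7681214 to 7716460) had 1543 and 2045 reads, at 11.9 and 16.6 RPKM, and was 1.51-fold higher (1.41 to 1.61). Lats2 (chromosome 14, 57689662 to 57758388, minus strand) had 380 and 426 reads, at 2.93 and 3.46 RPKM, and was 1.28-fold higher (1.11 to 1.47). The level intervals of Lats2 overlapped between the libraries, and those of Lats1 did not. With the correction for transcript length, the log2 ratio of Lats1 went from 0.59 to 0.42 and that of Lats2 from 0.34 to 0.18. Lats1 held most of the family, 80.2% and 82.8% of the summed RPKM. In GENCODE M21, 42.4% of the exonic bases of Lats2 are shared with Gm49361, a gene on the same strand that has no row among the genes read here. Whether the annotation used for counting held that gene is not stated. No other of the 10 genes shares more than 1.25% of its exonic bases with another gene.

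Upstream of LATS, the kinase genes Stk3 and Stk4 differed in opposite directions. Stk3 (chromosome 15, 34875496 to 35178921, minus strand), which encodes the kinase also called MST2, had 281 and 154 reads, at 4.88 and 2.82 RPKM, and was 1.60-fold lower (1.31 to 1.96). Its paralog Stk4, not one of the 10 genes, had 1055 and 1371 reads, at 10.1 and 13.9 RPKM, with a ratio of 1.48 (1.36 to 1.60). Their sum was 15 and 16.7 RPKM, and the share of Stk3 in it was 32.5% in the control and 16.9% in the knockdown-labelled library. The Stk3 to Stk4 read ratio was 2.37-fold lower in the latter (1.91 to 2.95).

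Wwc1 (chromosome 11, 35838400 to 35980527, minus strand) had the highest ratio of the 10 genes. It had 2048 and 3740 reads, at 23.2 and 44.8 RPKM, and was 2.08-fold higher (1.97 to 2.19). Its paralog Wwc2 had 465 and 337 reads, at 3.99 and 3.06 RPKM, a ratio of 0.825 (0.715 to 0.951). The Wwc1 to Wwc2 read ratio was 2.52-fold higher in the knockdown-labelled library (2.16 to 2.94). Wwc1 has also been described as a gene that YAP and TAZ activate.

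**Figure D1:**
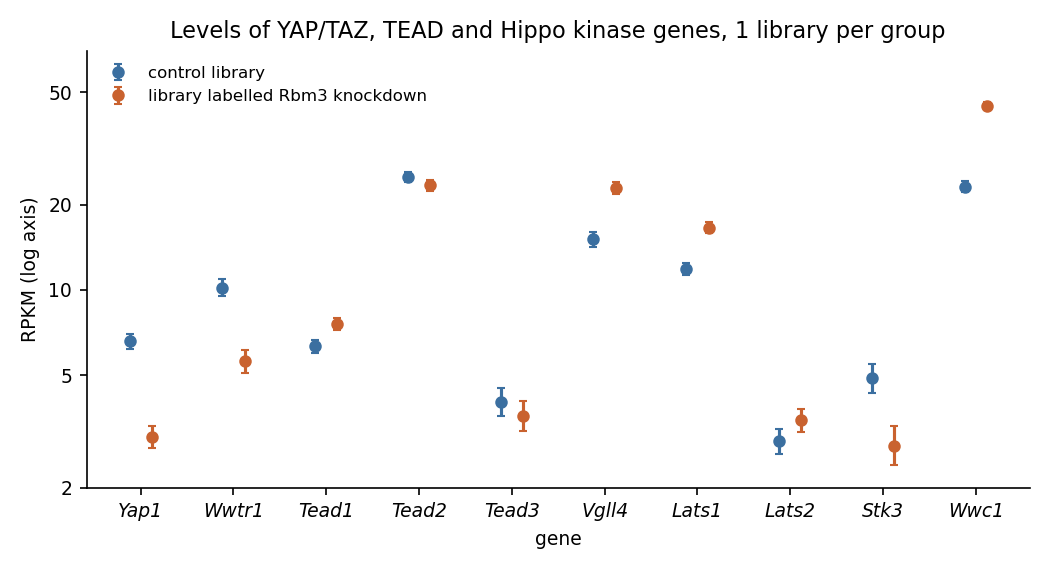
RPKM levels (log axis) of the 10 genes in the control and the knockdown-labelled library, 1 point per library with its exact Poisson 95% interval. Yap1 lies at 6.60 and 3.03 and Wwtr1 at 10.2 and 5.59, while Tead2 stays near 25.1 and 23.4 and Wwc1 goes from 23.2 to 44.8.

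The order of levels shifted around the coactivators. In the control library the order by RPKM was Tead2, Wwc1, Vgll4, Lats1, Wwtr1, Yap1, Tead1, Stk3, Tead3 and Lats2. Neighbours whose counting intervals overlapped there were Tead2 with Wwc1, Yap1 with Tead1, and Stk3 with Tead3. In the knockdown-labelled library the order was Wwc1, Tead2, Vgll4, Lats1, Tead1, Wwtr1, Tead3, Lats2, Yap1 and Stk3. Tead2 overlapped with Vgll4, and the last 4 genes overlapped each with the next. Yap1 was the sixth in the control and the ninth in the knockdown-labelled library. Its RPKM exceeded that of 47.5% of listed genes in the control and 32.8% in the other library, whereas Wwc1 exceeded 81.0% and 91.8%.

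Counted by size, Yap1 was the 1 gene of the 10 at least 2-fold lower and Wwc1 the 1 gene at least 2-fold higher, beside 4.51% and 2.13% of measured genes. These counts use a log2 ratio with 0.5 CPM added to both libraries, on which Yap1 lay at -1 and Wwc1 at 1.05. At 1.5-fold, 3 were lower (Yap1, Wwtr1 and Stk3) and 3 higher (Wwc1, Vgll4 and Lats1), beside 12.4% and 9.13% of measured genes, and 4 lay between. The median log2 ratio of the 10 genes was 0.18, against 0.03 over measured genes, whose interquartile range was -0.30 to 0.32. Only Tead2 and Tead3 of the 10 lay inside that range. Lats2 (0.34) and Tead1 (0.37) were just past its upper edge, and stood at 0.18 and 0.17 with the length correction. With that correction the median of the 10 genes was 0.05, against 0.01 over measured genes. The 2-fold calls sat on the line: Yap1 was not past it with median-of-ratios scaling (-0.98), nor Wwc1 with library totals (0.94). Lats1 lay just past 1.5-fold and was short of it with library totals (0.48), upper-quartile factors (0.50) and deposited RPKM values (0.48). It was also short with the length correction (0.42) and a pseudocount of 2 CPM (0.58). Stk3 was short of 1.5-fold with a pseudocount of 2 CPM (-0.58). In the authors' deposited table, none of the 10 genes met the stated threshold of a p-value under 0.05 with a log2 fold change beyond 1 in either direction, which 6.05% of listed genes met as lower and 1.82% as higher. There, the smallest p-value of the 10 was that of Wwc1, 0.111 with an FDR of 0.938, followed by Yap1, 0.129 with an FDR of 0.995. With 1 library per group, those p-values compare 2 libraries and rest on a spread that was not measured here.

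**Figure D2:**
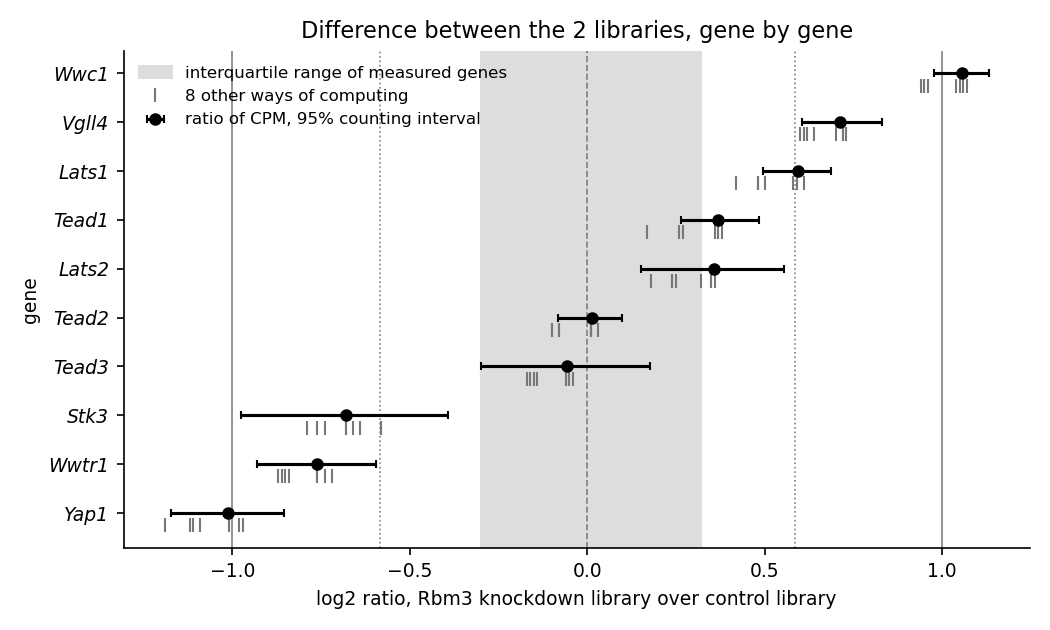
Log2 ratio of knockdown over control (horizontal axis) for each gene, with points and bars for the CPM ratio and its exact 95% counting interval and ticks for 8 other ways of computing it. Solid lines mark 2-fold, dotted lines 1.5-fold, and the grey band the interquartile range of measured genes (-0.30 to 0.32); Yap1 and Wwc1 lie at the 2-fold lines.

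Ratios of reads between genes of the same library do not depend on how the libraries are scaled. Their changes follow from the reads of each gene given above and are not a separate finding. The Yap1 to Tead2 read ratio was 2.03-fold lower in the knockdown-labelled library (1.79 to 2.31), and the Wwtr1 to Tead2 ratio 1.71-fold lower (1.5 to 1.95). Per length, Yap1 and Tead1 were near parity in the control, at a ratio of 1.04, and stood at 0.400 in the other library. Both coactivators together stood at 0.475 of the summed TEAD level in the control and at 0.249 in the knockdown-labelled library, and the ratio of their reads was 2.05-fold lower (1.87 to 2.25). Against the summed LATS kinases the level ratio went from 1.13 to 0.429, so the coactivator transcripts went from slightly above the kinase transcripts to below them. Yap1 differed most against the genes with higher ratios: its read ratio was 3.04-fold lower to Lats1 (2.68 to 3.46), 3.32-fold lower to Vgll4 (2.90 to 3.8) and 4.19-fold lower to Wwc1 (3.71 to 4.74). Within the TEAD genes, the ratio of Tead3 to Tead2 reads changed by 0.954 (0.798 to 1.14), the 1 pair of the 15 compared whose interval held 1. Lats1 to Lats2 changed by 1.18 (1.01 to 1.38).

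**Figure D3:**
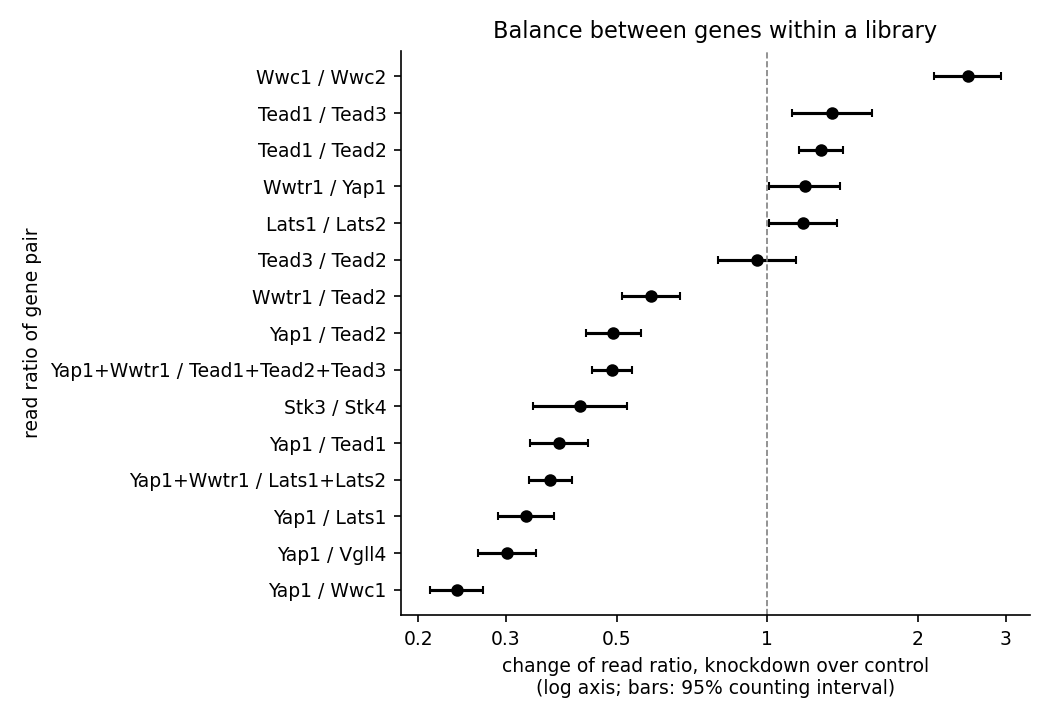
Change between libraries of the read ratio of 15 pairs (log axis, knockdown over control) with exact conditional 95% counting intervals; the dashed line marks no change. Pairs of Yap1 or Wwtr1 with TEAD, LATS, Vgll4 or Wwc1 lie below 1, down to 0.239 for Yap1 to Wwc1.

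Other Hippo pathway genes were read for context. Of 64 genes in 4 groups, 58 were listed and 55 measured. At 1.5-fold 4 were lower and 3 higher, 7.27% and 5.45% of those measured, beside the 12.4% and 9.13% above, and the median log2 ratio was 0.19. In the kinase core, 11 of 13 genes had a log2 ratio above 0, as did 53.1% of all measured genes, with a median of 0.37. Mob1b, a LATS cofactor, was 1.75-fold higher (1.59 to 1.93), and the kinase gene Tnik was 1.84-fold higher (1.76 to 1.92). Among 15 measured upstream genes, 10 lay below 0, beside 46.9% of all measured genes, with a median of -0.21. The apical polarity gene Crb2 was 1.65-fold lower (1.46 to 1.88) and the adhesion gene Kirrel 1.58-fold lower (1.41 to 1.78), while the protocadherin gene Dchs1 was 1.80-fold higher (1.74 to 1.86). Of 20 measured inhibitors and regulators, Ptpn14, a phosphatase that binds YAP, was the 1 past 1.5-fold, with 224 and 67 reads, 2.94-fold lower (2.23 to 3.92). Of 7 measured nuclear partners, the transcription factor gene Trp73 was the 1 past 1.5-fold, at 2.93-fold lower (2.46 to 3.50).

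**Figure D4:**
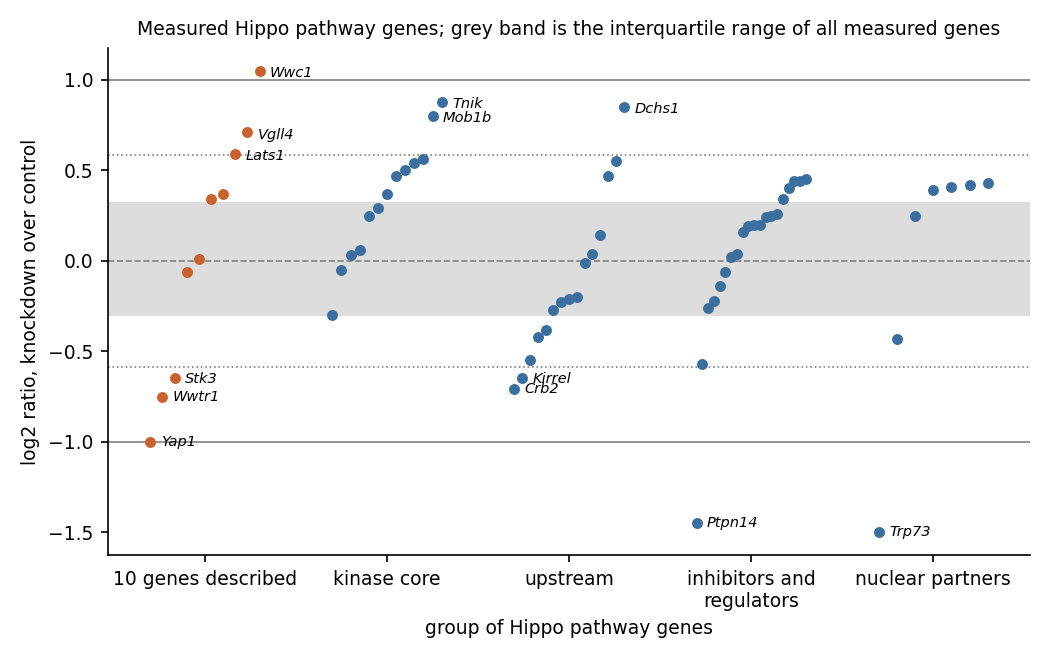
Log2 ratio of knockdown over control (vertical axis) of the 10 genes and of 55 other measured Hippo pathway genes by group, 1 point per gene, named where past 1.5-fold (dotted lines); solid lines mark 2-fold and the grey band the interquartile range of all measured genes. Most points of the other groups lie inside 1.5-fold, and Ptpn14 and Trp73 lie below -1.

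Listed genes that YAP and TAZ activate were more often lower than higher. Of those measured, 13 had a log2 ratio below 0 and 7 above, beside 46.9% and 53.1% of all measured genes. Of 20 measured targets, 7 were 1.5-fold lower and 2 higher (35% and 10%, beside 12.4% and 9.13% of all measured genes), with a median log2 ratio of -0.23. Cyr61 was 2.40-fold higher (2.11 to 2.73), from 351 to 740 reads, whereas Ctgf was 1.91-fold lower (1.43 to 2.58), from 150 to 69 reads. Ccdc80 was 2.36-fold lower (1.97 to 2.84) and Foxf2 2.60-fold lower (1.98 to 3.45). Wwc1, the other target past 1.5-fold higher, and Lats2 are among the 10 genes. The target list was chosen with earlier results of these data known, so its shares are not an independent check. Ptpn14 was the lowest of the measured targets, at a log2 ratio of -1.45. It is also counted among the inhibitors and regulators above, as are the targets Ajuba and Amotl2. Most markers of meninges, choroid plexus and vessels were also lower in the knockdown-labelled library, as given below. Whether the target ratios go with those markers or with Yap1 and Wwtr1 was not tested.

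Most markers of meninges, choroid plexus and vessels, tissues that also make YAP and TAZ, were lower in the same library as Yap1 and Wwtr1. The counts below stand beside 4.51% of all measured genes at least 2-fold lower and 2.13% at least 2-fold higher. At 1.5-fold these shares were 12.4% and 9.13%. All 11 measured meningeal fibroblast markers were at least 2-fold lower, and their summed level over 12 listed genes went from 726 to 53.4 CPM. Col1a2, a fibrillar collagen gene, had 3244 and 139 reads, and Dcn, a proteoglycan gene, 724 and 1. Of 6 measured choroid plexus markers 5 were at least 2-fold lower, from 690 to 35.7 CPM in sum, with Ttr at 10451 and 7 reads. Of 11 measured endothelial markers 8 were 2-fold lower, from 417 to 164 CPM, and Pecam1, an endothelial junction gene, had 555 and 247 reads. Mural markers went from 301 to 179 CPM, with 3 of 9 measured at least 2-fold and 5 at least 1.5-fold lower, and Pdgfrb, a receptor gene of these cells, had 790 and 417 reads, a log2 ratio of -0.72. All 6 measured erythroid markers were lower, from 309 to 67.8 CPM, with Hbb-bs at 3463 and 734 reads. Microglia and macrophage markers summed to 158 and 173 CPM but went both ways, with 2 of 9 measured at least 2-fold higher and 1 lower. Lyz2, a lysozyme gene, had 169 and 547 reads, Mrc1, a mannose receptor gene, 532 and 89, and Csf1r 791 and 795. No listed marker of these types was at 0 in either library. The 4 Y chromosome genes read (Eif2s3y, Ddx3y, Kdm5d and Uty) summed to 139 CPM in the control, and the other library had 0 reads of them. Xist, made from the inactive X chromosome of female cells, had 5246 and 24642 reads. Transcripts of male cells were thus seen in the control library alone. The sex of the embryos and the label therefore cannot be told apart for any ratio given here.

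Neural markers differed as well. The 18 radial glia markers summed to 3260 CPM and 2260 CPM in control and knockdown-labelled libraries, with 3 at least 2-fold lower and 0 higher, beside 4.51% and 2.13% of all measured genes. At 1.5-fold 7 were lower and 1 higher, beside 12.4% and 9.13% of all measured genes. The 1 higher was the growth arrest gene Gas1, with a log2 ratio of 0.73. Fabp7, a lipid-binding protein gene of radial glia, had a log2 ratio of -1.61 and the filament gene Nes one of -1.13, beside 0.13 for Sox2. Intermediate progenitor markers went from 1000 to 1630 CPM, with 4 of 12 at least 2-fold higher, beside 2.13% of all measured genes. Eomes, their defining factor, stood at 36.0 and 50.3 RPKM. Neuronal markers summed to 7480 and 9830 CPM but went both ways. At 1.5-fold 7 of 14 were higher and 4 lower, beside 9.13% and 12.4% of all measured genes. The axonal gene Cntn2, at 626 and 1920 CPM, made a large part of the higher sum, with a log2 ratio of 1.62. The growth cone gene Gap43 had one of -1.51. The part of these differences in the lower Yap1 and Wwtr1 levels was not tested, and in such bulk libraries fewer cells of a type and less RNA per cell cannot be told apart.

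**Figure D5:**
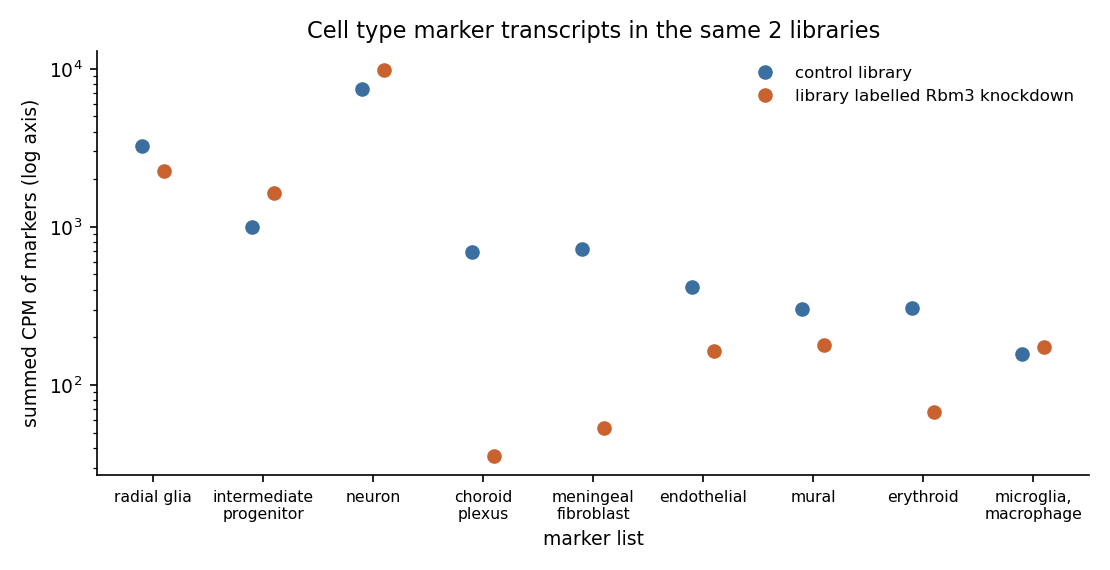
Summed CPM of the listed markers of 9 cell types (log axis) in the control and the knockdown-labelled library, 1 point per library. Meningeal fibroblast markers go from 726 to 53.4 and choroid plexus markers from 690 to 35.7, beside 3260 to 2260 for radial glia markers.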

How the data were processed

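RNA-seq libraries of 1 control and 1 Rbm3 knockdown sample were compared. Each library used 100 ng of RNA, which was enriched with oligo(dT), fragmented and reverse transcribed with random primers, per the labels' protocols. TopHat2 2.0.12, Bowtie 1.0.1 and HTSeq 0.6.0 are named in the submitters' processing notes, with no role stated. Genome build, annotation and strandedness are not stated there or in the labels. Per the file headers, the deposited table holds read counts, RPKM, log2 values (fold change and average CPM) and a p-value with its adjusted value for each gene. The authors' RPKM and counts were used as deposited.

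TMM scaling was done in edgeR 4.0.16, with factors of 1.04 (control) and 0.963 (knockdown). Log2 ratios used a pseudocount of 0.5 CPM, and fold values none. Fold intervals are exact (Clopper-Pearson, SciPy 1.17.1), levels have exact Poisson intervals, and pair ratios the exact conditional interval of the odds ratio, all at 95%. With 1 library per group no test was run. The log2 ratio and the fold interval were tried on simulated Poisson counts scaled by library totals. That trial held counting error only and did not cover TMM scaling, the length correction, levels or pair ratios. Total counts over listed genes were 17757555 and 16823612, so library depths are at least that large. Where genes past 1.5-fold or 2-fold are named, a rule of size chose them, with paralogs of the 10 genes, the targets Cyr61 and Ctgf, and defining markers of each cell type or those with the largest ratios added. The members, gene lists, pairs and motifs were chosen with earlier results of these data known. Some genes of the lists are not reported here. Of the target genes, Myof was 2-fold lower but not measured. Positions are from GENCODE M21 (GRCm38), matched by gene ID, and promoters from RefSeq (GRCm38.p6). Alternatives were 3 other scalings, 2 pseudocounts, 4 CPM minimums, a length correction, and the deposited fold changes and RPKM.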

Additional observations from a re-analysis of the deposited data

How the results depend on the processing

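The sign of Yap1, Wwtr1, Stk3, Tead3, Vgll4, Lats1, Lats2, Tead1 and Wwc1 was kept under 8 other ways of computing the log2 ratio, and that of Tead2 was not (-0.10 to 0.03). Ranges were -1.19 to -0.97 for Yap1, -0.87 to -0.72 for Wwtr1 and -0.79 to -0.58 for Stk3. They were 0.42 to 0.61 for Lats1, 0.18 to 0.36 for Lats2 and 0.17 to 0.38 for Tead1. For Vgll4 the range was 0.60 to 0.73 and for Wwc1 0.94 to 1.07. The value of -1.19 for Yap1 came with the length correction, which matters because the median log2 ratio ran from -0.19 in the shortest to 0.20 in the longest of 5 length bins of measured genes. The number of the 10 genes 2-fold higher was 0 with library totals, upper-quartile factors, deposited RPKM values and the length correction. The number 2-fold lower was 0 with median-of-ratios factors and with a pseudocount of 2 CPM. Library totals moved the median of measured genes from 0.03 to -0.07. No paired analysis was possible because each group has 1 library. Without replicates, depth limits only the counting error, and the spread between embryos or sorts was not measured.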
